A study of Mus musculus with 4 samples.

Results

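Chromatin accessibility was examined at 36 genes of the cell cycle and of proliferation, among 21883 protein-coding mouse genes of the RefSeq table for GRCm38.p6 (mm10). The members were chosen by function. They are the proliferation and DNA synthesis genes Mki67, Top2a and Pcna, 8 cyclins, 4 cyclin-dependent kinases, 4 inhibitors of those kinases, 3 activator E2Fs with Rb1, the 6 subunits of the MCM helicase, 5 mitotic kinases, Myc and Trp53. A gene was scored by the peaks within 1 kb of either of its ends (gene-end peaks) and, separately, by all peaks in its body extended by 10 kb on each side. All 36 were found in the gene table, and their extended bodies held 107 of the 45299 regions made by merging the peaks of the 4 libraries wherever they shared at least 1 bp.

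The 4 ATAC-seq libraries, 2 per genotype, came from wild-type mice and from mice lacking Sphk2, which encodes sphingosine kinase 2. ATAC-seq uses the Tn5 transposase to cut and tag open chromatin. Both genotypes had received EL4 cells, a mouse T lymphoma line. Myeloid-derived suppressor cells, which are immature myeloid cells that dampen T cell responses, were sorted as Gr1+CD11b+ cells from the ascitic fluid after 14 days. Each library used 20000 cells and 40% of the usual amount of Tn5. The labels name biological replicates without tying them to animals, and they give neither strain nor age nor the kind of Sphk2 allele, so the spread between libraries may be partly technical. With 2 libraries against 2, a two-sided exact permutation test could not fall below 0.33, so no test was made and all differences are described beside the same measure over all genes or regions.

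Values from the 4 libraries are given below in a fixed order, first those of WT replicate 1 and WT replicate 2, then those of Sphk2 KO replicate 1 and Sphk2 KO replicate 2. Retained fragments numbered 33859480, 34443062, 25877428 and 27686223, and the lists held 31507, 31843, 20759 and 27446 peaks. Sphk2 KO replicate 1 was the shallowest library and had the shortest list, so a peak missing there alone is given as such below. Gene-end peaks of Sphk2 itself were called in all 4 libraries, which is no check of the deletion, since the deleted part is not given in the labels. Gene-end peaks were called at 8, 7, 7 and 8 of 10 granulocytic marker genes and at 6, 7, 3 and 4 of 8 monocytic ones. Macrophage markers had 3, 3, 1 and 1 of 7, T cell markers 3, 9, 3 and 3 of 20, mast cell and basophil markers 1, 1, 0 and 1 of 5, erythroid and platelet markers 1, 2, 1 and 2 of 6, and B cell and NK cell markers none of 8 and none of 6. Of the 20 T cell markers, 10 had no gene-end peak in any library, Cd3e, Lck and Rag1 among them, and 8 had one in some libraries. Cd3d (scores, as −log10 q, of 124, 144, 104 and 198) and Cd5 (24.2, 30.03, 24.0 and 37.5) had one in every library, and 6 markers had one in WT replicate 2 alone. In the body extended by 10 kb, 16, 17, 9 and 13 of the 20 T cell markers had a peak, and 9 had one in every library. The shares of all genes with an extended-body peak were 64.5%, 65.1%, 56.5% and 62.4%. Gene-end peaks at monocytic and macrophage markers were fewer in both Sphk2 KO libraries. Over all genes the gene-end shares were 47.9%, 48.8%, 42.5% and 47.2%. Called in both WT lists and in neither Sphk2 KO list were Mertk (7.13 and 6.82), Irf8 (17.0 and 7.55) and Fn1 (11.2 and 10.6). In the extended body the monocytic markers had 7, 8, 4 and 6, and the macrophage markers 6, 6, 3 and 3. The part of cell composition or of depth in these counts and in the results below was not tested. In bulk libraries, a region open in fewer cells and a region less open in each cell cannot be told apart.

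Cells enter the division cycle when D-type cyclins with Cdk4 or Cdk6, and then E-type cyclins with Cdk2, phosphorylate the retinoblastoma protein Rb1 and release the E2F factors it holds. E2F factors switch on genes of DNA replication, among them those of the MCM helicase, which unwinds DNA at replication forks. Genes of mitosis are controlled largely through CCAAT boxes, bound by NF-Y, and through the cell cycle homology region (CHR), bound by the DREAM and MuvB complexes. In many cell types the promoters of cell cycle genes often stay accessible whether or not the cells divide, so an open promoter is not a measure of division. Mature neutrophils do not divide, whereas their precursors do.

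Of the 36 genes, 33, 33, 30 and 33 had a gene-end peak in the 4 libraries, which is 91.7%, 91.7%, 83.3% and 91.7%. Over all 21883 protein-coding genes the shares were 47.9%, 48.8%, 42.5% and 47.2%. A gene-end peak in every library was found at 29 of the 36 genes, against 41.6% of all genes. The 7 others were 3 cyclin genes of the D type, Ccnb2, Cdkn1a, E2f2 and Myc. Calls made in both WT libraries but absent from the Sphk2 KO lists (WT-only) were found at Ccnd3 alone, 1 of the 33 members whose ends had peaks in both WT libraries, where 2.74% of all genes with such peaks were WT-only. No member had the reverse pattern (Sphk2 KO-only), which 0.239% of the genes with a peak in both Sphk2 KO libraries had. Ccnd3 kept its pattern among peaks with a −log10 q of at least 5 and among the top 20759 peaks of each list, and Myc joined it in both settings. Without Sphk2 KO replicate 2 the WT-only genes were 4, namely Ccnd3, Ccnb2, E2f2 and Myc, and Ccnd2 had a peak in the Sphk2 KO library alone. Leaving out that library also makes WT-only any gene that lacked a gene-end peak in Sphk2 KO replicate 1 alone. Over all genes, 724 were of that kind and 278 were WT-only, where 10147 had peaks in both WT libraries. Without Sphk2 KO replicate 1, Cdkn1a was Sphk2 KO-only. Shares over all genes were not computed for these settings. In the plot of peak strength by gene and library, the empty cells lie at these 7 genes.

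**Figure D1:**
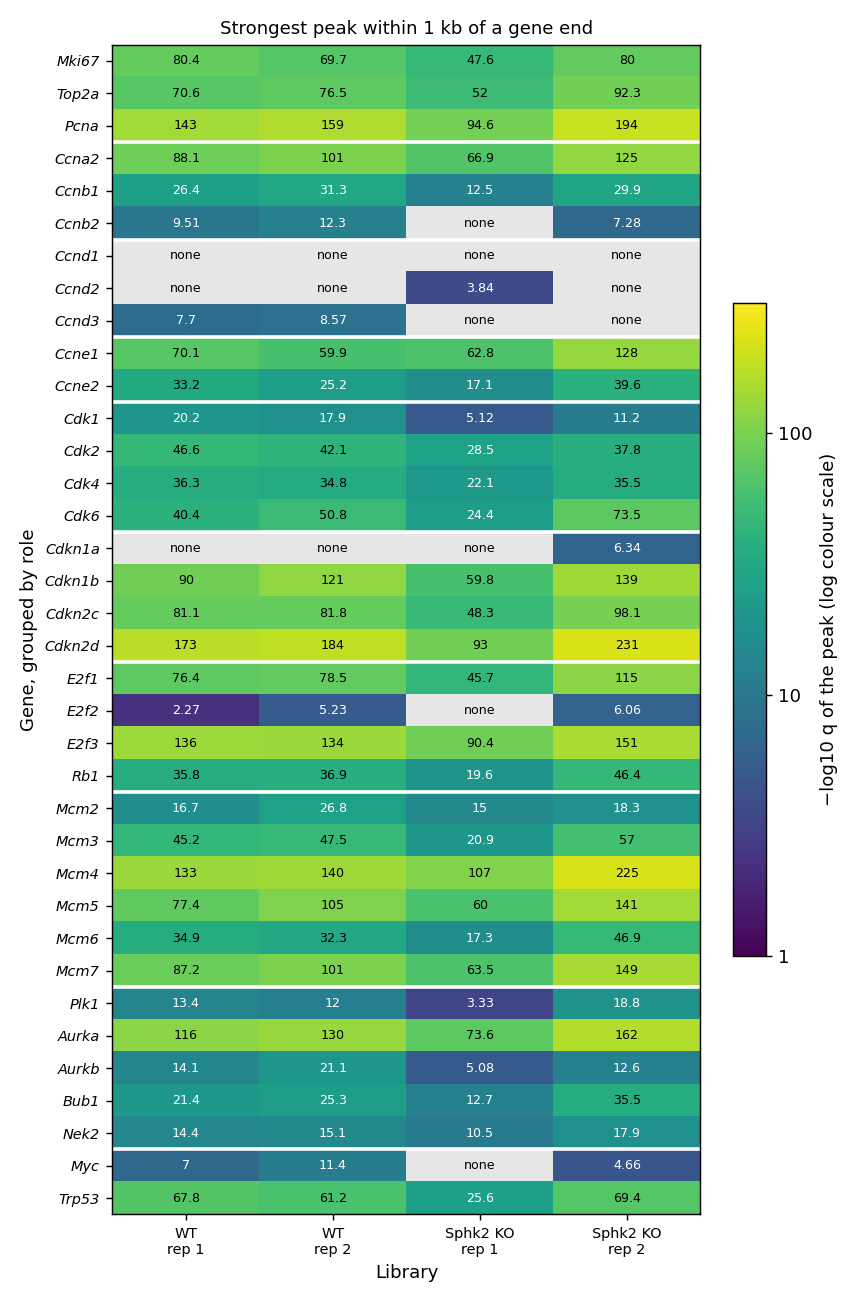
Heat map of the strongest peak within 1 kb of a gene end for the 36 genes (rows, grouped by role) in the 4 libraries (columns). The printed number and the colour (log scale) give the −log10 q of that peak, and grey cells marked none had no called peak. Sphk2 KO replicate 1 has the most grey cells (6), and Ccnd1 has none called in any library.

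The score printed for each peak is the −log10 of the q-value given by the authors' peak caller, and it grows with depth. It is compared between genes within a library, and between libraries only through ranks among regions that all 4 libraries share. Among members with a gene-end peak the median score was 45.2, 47.5, 27.0 and 57.0, against 47.2, 52.4, 34.8 and 63.4 over all genes with such a peak. The members thus had a gene-end peak more often than genes at large, and the median of those peaks was lower in every library. The median peak of a member stood 21.3%, 22.7%, 34.8% and 25.1% down its library's list, and that of all genes 20.4%, 20.7%, 27.5% and 23.0% down.

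The strongest gene-end peaks, by mean rank over the 4 lists, belonged to Cdkn2d, Mcm4, Pcna, E2f3 and Aurka. Cdkn2d, which encodes an inhibitor of Cdk4 and Cdk6 of the INK4 family, ranked 414, 430, 1100 and 438 in the 4 lists, with scores of 173, 184, 93.0 and 231. Its mean rank was 2.39% of the list. Mcm4 followed at 3.07%, Pcna, the sliding clamp of DNA polymerases, at 3.32%, the activator E2f3 at 4.81%, and the mitotic kinase Aurka at 6.04%. The Mcm4 region spans the ends of both Mcm4 and Prkdc, with its mean summit 91 bp from the end of Prkdc, and the mean summit at Pcna lies 50 bp from the end of Cds2. At 7 members a gene-end region had its mean summit within 1 kb of an end of another protein-coding gene. They were Cdkn2d, Mcm4, Pcna, Aurka, Ccna2, Mcm7 and Trp53, and such a peak cannot be assigned to either gene of the pair. At Cdkn2d this was the weaker of its 2 gene-end regions, 129 bp from the end of Kri1. The strongest Cdkn2d peak, ranked above, had its mean summit 163 bp from the Cdkn2d start and 3243 bp from the nearest other gene end.

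Peaks at the ends of the members lay mainly at the start sites. Strand and start sites were available for 28 members, through 34 RefSeq promoter windows that run from 250 bases before to 50 bases after a start. Of the 30 gene-end regions of these members, 28 had their mean summit within 1 kb of the nearest start, and the median distance over all 30 was 100 bp. A peak overlapped the window in all 4 libraries at 29 of the 34 windows, against 39.5% of the 21262 windows of all genes with a strand. By gene, 28, 28, 26 and 27 of the 28 members had a peak in a window, against 47.6%, 48.5%, 42.5% and 47% of the 17491 genes with a strand, and 26 had one in every library. The 3 windows called in some libraries were those of Ccnb2, the first start of Ccnd3 and the first start of E2f2. The 2 windows with no peak were the first start of Cdkn1a and the second of E2f2. No RefSeq window was used for Ccna2, Ccnd1, Ccnd2, Ccne2, Rb1, Mcm4, Aurkb and Myc.

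Sequence before the start sites is shown for 4 mitotic genes and an MCM gene, because CCAAT, CHR and E2F-like letters stood more often in member windows than in windows at large. Each run is the 250 bases before the start, 5′ to 3′ on the gene's strand, from RefSeq on GRCm38.p6 (mm10). Capitals mark CCAAT, the CHR letters TTTGAA with their close form TTTAAA, and the E2F-like letters, which were TTCCCGC with the variant form TTGGCGC and the further form TTCGCGC. Each was read on either strand, so that ATTGG is the box on the other strand. Ccnb1 and Ccnb2 encode the mitotic B-type cyclins, Cdk1 their kinase, Nek2 a kinase of centrosome separation, and Mcm5 a subunit of the replicative helicase.
Ccnb1 (chr13:100786487-100786736, minus strand): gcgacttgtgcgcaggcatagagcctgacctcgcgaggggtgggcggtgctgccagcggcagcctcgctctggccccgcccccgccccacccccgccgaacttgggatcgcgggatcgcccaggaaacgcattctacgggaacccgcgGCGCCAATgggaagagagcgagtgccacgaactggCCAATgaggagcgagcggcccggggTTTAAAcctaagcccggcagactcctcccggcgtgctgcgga
Ccnb2 (chr9:70421555-70421804, minus strand): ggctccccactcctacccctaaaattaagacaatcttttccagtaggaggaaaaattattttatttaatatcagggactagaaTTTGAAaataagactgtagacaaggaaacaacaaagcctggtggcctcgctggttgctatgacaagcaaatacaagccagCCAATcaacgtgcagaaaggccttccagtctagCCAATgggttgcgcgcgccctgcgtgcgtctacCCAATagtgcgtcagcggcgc
Cdk1 (chr10:69352913-69353162, minus strand): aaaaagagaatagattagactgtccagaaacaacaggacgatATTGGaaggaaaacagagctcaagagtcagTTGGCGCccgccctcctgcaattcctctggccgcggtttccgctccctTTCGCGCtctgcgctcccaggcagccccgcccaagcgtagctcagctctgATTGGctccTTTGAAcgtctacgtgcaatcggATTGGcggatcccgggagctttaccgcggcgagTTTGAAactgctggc
Nek2 (chr1:191821223-191821472, plus strand): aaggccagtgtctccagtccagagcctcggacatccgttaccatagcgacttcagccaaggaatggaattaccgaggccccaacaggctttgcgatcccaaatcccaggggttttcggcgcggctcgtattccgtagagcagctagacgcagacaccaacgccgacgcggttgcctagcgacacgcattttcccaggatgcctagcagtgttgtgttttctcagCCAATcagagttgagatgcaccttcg
Mcm5 (chr8:75109259-75109508, plus strand): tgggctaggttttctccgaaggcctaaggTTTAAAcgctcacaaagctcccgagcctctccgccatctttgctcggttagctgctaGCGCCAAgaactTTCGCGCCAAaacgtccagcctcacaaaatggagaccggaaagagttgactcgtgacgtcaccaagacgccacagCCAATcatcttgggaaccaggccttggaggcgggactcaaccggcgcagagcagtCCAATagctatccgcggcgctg

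CCAAT stood in 24 of the 34 member windows (70.6%), against 33.8% of all 32851 windows in the table and 36.5% of the 9488 windows with a peak in all 4 libraries. Of the 29 member windows with a peak in all 4 libraries, 21 held it (72.4%). CCAAT boxes occurred 2 or more times in 41.2% of member windows, against 10.1% of all windows and 15.1% of those with a peak in all 4 libraries. These shares describe the promoters, and a match of letters is not evidence of binding. CHR letters stood in 35.3% of member windows, against 25.2% of all windows and 15% of those with a peak in all 4 libraries. E2F-like letters stood in 29.4%, against 6.69% and 14.0%. The Sp1 letters GGGCGG stood in 73.5%, against 32.7% and 64.0%, and the E-box CACGTG in 8.82%, against 6.02% and 9.36%. CACGTG is the letter string that Myc and its partners bind, and it occurred 4 times before the start of Cdk4 and 1 time each at Cdk6 and the second start of E2f3.

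All 9 windows of the genes that act in mitosis or mark dividing cells (Ccnb1, Ccnb2, Cdk1, Plk1, Aurka, Bub1, Nek2, Top2a and Mki67) held CCAAT, 6 of the 9 held CHR letters and 3 held E2F-like letters. All 6 windows of the 5 MCM genes with an entry held CCAAT, 4 of the 6 held E2F-like letters and 2 held CHR letters. Among 184 windows of other cell cycle genes the shares were 48.9% for CCAAT, 26.6% for CHR letters and 19.6% for E2F-like letters. The difference between these sets was not tested. Of 24 spacings between consecutive boxes in member windows, 5 were 31 to 33 bp, measured between the first bases of the boxes, a range that was chosen after the spacings were seen. The share was 6.41% of 4600 spacings over all windows and 8.35% of 2227 over windows with a peak in all 4 libraries. Among the other cell cycle genes, whose spacings were not used to choose the range, it was 9.23% of 65. The 5 were the 32 bp spacing of Ccnb1, both 33 bp spacings of Ccnb2, 32 bp at Cdk1 and 32 bp at Aurka. Of the 17 E2F-like matches, 1 overlapped a CCAAT box, at Ccnb1, and TTGGCGC and TTCGCGC overlapped each other in Mcm5 and Mcm6.

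Gene-end peaks of the replication genes were called in every library. The proliferation antigen gene Mki67 scored 80.4, 69.7, 47.6 and 80.0, and Top2a, which encodes the topoisomerase that untangles chromosomes, 70.6, 76.5, 52.0 and 92.3. Pcna scored 143, 159, 94.6 and 194. The MCM subunits, all called in 4 of 4 libraries, spanned a wide range of strength. Mcm4 was the strongest in each library, with 133, 140, 107 and 225, and Mcm2 the weakest, with 16.7, 26.8, 15 and 18.3. Mcm5, Mcm7, Mcm3 and Mcm6 lay between them, with Mcm5 and Mcm7 above Mcm3 and Mcm6 in every library.

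Cyclins of S phase and mitosis differed in strength. Ccna2, the A-type cyclin of S phase and mitosis, scored 88.1, 101, 66.9 and 125 at a region 644 bp from its gene end and near Bbs7. Ccnb1 scored 26.4, 31.3, 12.5 and 29.9. Ccnb2 had the weakest peak of the 3, with 9.51, 12.3 and 7.28, and none in Sphk2 KO replicate 1. That pattern, a peak missing in Sphk2 KO replicate 1 alone, was shared by E2f2 and Myc and was found at 3.31% of all genes. Of the 21883 genes, 10631 had no gene-end peak in any library and could not show it, against 1 of the 36 members. Of 4071 regions with scores of 5 to 15 in both WT libraries, 32.3% lacked a peak in Sphk2 KO replicate 1 alone and 19.7% lacked one in both Sphk2 KO libraries.

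The D-type cyclins, which couple growth signals to the cycle, were the group with the fewest gene-end peaks: 1, 1, 1 and 0 of the 3 genes. Ccnd1 had no gene-end peak in any library. In its extended body, a region at chr7:144937574-144938055 was called in WT replicate 1 and Sphk2 KO replicate 2, with scores of 8.17 and 8.05, so 1 library of each genotype had it. Ccnd2 had a gene-end peak in Sphk2 KO replicate 1 alone, with a score of 3.84 at chr6:127151701-127151879. A stronger Ccnd2 region at chr6:127150321-127151126 lay 1062 bp from the gene end, just outside the 1 kb window, and scored 15.6, 12.8 and 18.6 in the libraries other than Sphk2 KO replicate 1. The library that has the Ccnd2 gene-end peak is therefore the library that lacks the stronger region beside it. Just inside the window lie the Ccna2 region, at 644 bp, and the first Cdk6 region, at 487 bp.

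Ccnd3 had 2 RefSeq starts that differed in their peaks, and both are shown because the peak at the first made Ccnd3 the only WT-only member by gene. The first start, at chr17:47505051, had a peak of 183 bp at chr17:47504996-47505178 with scores of 7.70 and 8.57 in the WT libraries and none in the Sphk2 KO libraries. The second start, at chr17:47593467 inside the gene, had a region in all 4 libraries with scores of 38.0, 53.1, 37.7 and 60.2. Thus the upstream start had a weak peak in WT libraries alone and the downstream start a strong peak in both genotypes. In the 250 bases before the start, the second start had 1 CCAAT box and the first had none of the marked letters.
Ccnd3 first start (chr17:47504801-47505050, plus strand): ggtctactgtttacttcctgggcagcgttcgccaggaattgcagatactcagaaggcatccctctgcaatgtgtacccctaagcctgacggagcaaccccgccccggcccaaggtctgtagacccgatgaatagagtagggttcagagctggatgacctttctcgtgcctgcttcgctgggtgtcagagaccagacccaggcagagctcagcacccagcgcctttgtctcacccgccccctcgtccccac
Ccnd3 second start (chr17:47593217-47593466, plus strand): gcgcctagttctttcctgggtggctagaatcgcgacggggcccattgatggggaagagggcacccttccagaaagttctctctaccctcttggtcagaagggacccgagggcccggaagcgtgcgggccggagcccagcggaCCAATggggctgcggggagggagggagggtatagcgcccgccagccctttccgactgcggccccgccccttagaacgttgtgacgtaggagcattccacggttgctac

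Of 260 regions with scores of 7 to 9 in both WT libraries, 26.9% had no peak in either Sphk2 KO library, and 38.5% had one in both, so the pattern at the first start of Ccnd3 was common among regions of its strength. The extended body of Ccnd3 held 10 regions. Besides the second start, 3 of them were called in all 4 libraries, at chr17:47501879-47502454, 47507836-47508508 and 47511089-47511835. The first of the 3 lies 2.8 kb upstream of the first start and 53 bp from the end of Taf8. Its scores were 48.1, 60.6, 32.7 and 55.9.

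E-type cyclins and the kinases had gene-end peaks in all 4 libraries. Ccne1, which activates Cdk2 at the entry to S phase, scored 70.1, 59.9, 62.8 and 128, and Ccne2 33.2, 25.2, 17.1 and 39.6. Cdk2 scored 46.6, 42.1, 28.5 and 37.8 and Cdk4 36.3, 34.8, 22.1 and 35.5. Cdk6, the other partner of D-type cyclins, scored 40.4, 50.8, 24.4 and 73.5. Cdk1, the kinase that drives mitosis, was the weakest of the 4 kinases in each library, with 20.2, 17.9, 5.12 and 11.2.

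Among the inhibitors, Cdkn1b, Cdkn2c and Cdkn2d had gene-end peaks in all 4 libraries. Cdkn1b, an inhibitor of cyclin E and Cdk2 complexes, scored 90.0, 121, 59.8 and 139, and Cdkn2c, of the INK4 family, 81.1, 81.8, 48.3 and 98.1. Cdkn1a, the inhibitor induced by Trp53, differed from them: it had a gene-end peak in Sphk2 KO replicate 2 alone, with a score of 6.34, at the 3′ end of the gene. The start with peaks was the second one, inside the gene body, and the windows of both starts are shown because peaks were called at only 1 of them.
Cdkn1a first start (chr17:29090729-29090978, plus strand): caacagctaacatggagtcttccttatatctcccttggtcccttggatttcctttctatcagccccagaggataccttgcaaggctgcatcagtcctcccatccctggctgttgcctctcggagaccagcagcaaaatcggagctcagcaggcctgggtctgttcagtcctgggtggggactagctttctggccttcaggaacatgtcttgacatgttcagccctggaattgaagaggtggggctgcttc
Cdkn1a second start (chr17:29093519-29093768, plus strand): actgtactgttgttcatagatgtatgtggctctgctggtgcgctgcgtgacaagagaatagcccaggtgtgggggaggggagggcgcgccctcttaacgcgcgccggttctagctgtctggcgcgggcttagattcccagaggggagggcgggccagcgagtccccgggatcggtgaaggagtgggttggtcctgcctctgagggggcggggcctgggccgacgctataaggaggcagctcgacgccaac

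No marked letters occurred in either Cdkn1a window. The first start, at chr17:29090979, had no peak in any library. The second start, at chr17:29093769, lies in a region of 2197 bp at chr17:29093655-29095851 whose best scores were 136, 149, 106 and 203. Those exceed the gene-end scores of Cdkn1b and Cdkn2c in every library, and a rule that counts only the gene's outer ends misses them. In WT replicate 1 the peak over the second start itself scored 8.34, and the score of 136 belonged to a separate peak of the same merged region.

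Of the activator E2Fs and their inhibitor, E2f1 scored 76.4, 78.5, 45.7 and 115, E2f3 136, 134, 90.4 and 151, and Rb1 35.8, 36.9, 19.6 and 46.4. E2f2 was weak, with best gene-end scores of 2.27, 5.23 and 6.06 and no peak in Sphk2 KO replicate 1. Its first start, at chr4:136172274, was covered by a peak in the WT libraries alone (chr4:136172244-136172464, scores 2.27 and 2.76), while WT replicate 2 and Sphk2 KO replicate 2 had a peak 275 bp from the gene end, at chr4:136172549-136173275, with scores of 5.23 and 6.06. Of 162 regions with scores of 2 to 3 in both WT libraries, 69.8% had no peak in either Sphk2 KO library. The strongest E2f2 region was in the body, with 28.5, 35.9, 27.9 and 29.8. Its mean summit lay 7.9 kb downstream of the first start and 655 bp upstream of the second. The window before the first E2f2 start is shown for its lone CCAAT box, 13 to 9 bases before the start.
E2f2 first start (chr4:136172024-136172273, plus strand): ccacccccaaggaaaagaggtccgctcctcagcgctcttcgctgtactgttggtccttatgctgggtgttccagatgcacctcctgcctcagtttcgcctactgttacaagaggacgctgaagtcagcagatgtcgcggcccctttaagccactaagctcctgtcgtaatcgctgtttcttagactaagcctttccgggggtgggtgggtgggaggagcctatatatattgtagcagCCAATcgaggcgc

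Mitotic kinases were called at their ends in all 4 libraries. Aurka, which builds the spindle poles, scored 116, 130, 73.6 and 162, and lies beside Cstf1. Aurkb, of the chromosomal passenger complex, scored 14.1, 21.1, 5.08 and 12.6, and Plk1, which acts at centrosomes and kinetochores, 13.4, 12.0, 3.33 and 18.8. Bub1, of the spindle checkpoint, scored 21.4, 25.3, 12.7 and 35.5, and Nek2 14.4, 15.1, 10.5 and 17.9. Aurka alone of the 5 scored above 40 in every library. Trp53, whose product halts the cycle after DNA damage, scored 67.8, 61.2, 25.6 and 69.4 in a region shared with Wrap53. In WT replicate 1 the peak over the Trp53 start window scored 33.5, and the score of 67.8 belonged to a separate peak of the same merged region. Myc, a driver of growth, scored 7.0, 11.4 and 4.66, with none in Sphk2 KO replicate 1.

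In the extended bodies, 36, 35, 33 and 36 of the 36 genes had a peak, against 64.5%, 65.1%, 56.5% and 62.4% of all genes. All 4 libraries had one at 33 members, against 55.2% of genes. The 3 others were Ccnd1, absent in WT replicate 2 and Sphk2 KO replicate 1, and Ccnb2 and Myc, absent in Sphk2 KO replicate 1 alone. The latter pattern was found at 4.16% of all genes. Of the 21883 genes, 6676 had no extended-body peak in any library and could not show it, while every member had one in some library. No member had peaks in its extended body in both libraries of 1 genotype and in neither of the other, where 3.47% of genes with a peak in both WT libraries and 0.205% of genes with a peak in both Sphk2 KO libraries had such a pattern.

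By region, 63 of the 107 member regions were called in all 4 libraries (58.9%), against 48.9% of the 29345 regions in the extended bodies of all protein-coding genes. WT-only regions numbered 11 (10.3%), against 5.45% over all genes, and none was Sphk2 KO-only, against 0.62%. A further 9 (8.41%) lacked a peak in Sphk2 KO replicate 1 alone, against 8.36%. Regions of the same gene share their surroundings and are not independent. Of the 11 WT-only regions, 4 lay in Cdk6, a gene of 16 regions, and the others fell at 1 each in Nek2, Ccnd3, E2f2, Cdkn1a, Cdkn1b, Bub1 and Myc. Their median scores in the WT libraries were 5.65 and 5.37, against 5.07 and 6.11 for all 2460 WT-only regions. The count depended on the lists: 7 were WT-only among peaks with a score of at least 5, and 5 among the top 20759 peaks of each list, where 1 region, in Mcm5 at chr8:75119450-75120029, was Sphk2 KO-only. In both settings the WT-only regions included a Myc region at chr15:61984937-61985822, which is not among the 11. Leaving out WT replicate 2 gave 17, and leaving out Sphk2 KO replicate 2 gave 19. Shares over all regions were not computed in these settings.

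The strongest of the 11 lay upstream of Nek2, at chr1:191817907-191818306, 3.5 kb before the first start. Scores there were 24.0 and 28.3, fold enrichments 7.24 and 7.21 and pileups 46 and 55 fragments in the WT pair, and neither Sphk2 KO list held a peak. The peak at the Nek2 start, by contrast, was weaker than the upstream one in both WT libraries and was called in all 4 libraries. Of 1157 regions with scores of 20 to 30 in both WT libraries, 14 (1.21%) had no peak in either Sphk2 KO library and 91.4% had one in both. Of the 11 WT-only member regions only this one reached a score of 10 in both WT libraries, as did 240 of the 2460 WT-only regions in all. It was WT-only also among peaks with a score of at least 5 and among the top 20759 peaks of each list. The nearest end of another protein-coding gene, Lpgat1, was 33740 bp away.

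The other WT-only regions were weaker. A region 8.9 kb upstream of the first start of Cdkn1a, at chr17:29081868-29082294, scored 7.80 and 8.97. In Cdk6 the 4 regions lay 12.2, 38.2, 112.1 and 154.0 kb downstream of the first start and scored 6.71 and 5.37, 2.61 and 3.10, 2.98 and 3.69, and 11.5 and 9.84. Within the same gene 7 regions were called in all 4 libraries, and each of them scored above the 4 WT-only regions in both WT libraries. Cdkn1b had a WT-only region 1.9 kb from its 3′ end (5.64 and 3.33), beside a region called in all 4 libraries (44.0, 46.8, 29.0 and 59.3). The Bub1 region (5.65 and 10.6) lay 38 bp from the end of Mtln, and the Myc region (4.26 and 3.49) 9.4 kb from the nearer gene end. In the maps of Nek2, Ccnd3, Cdkn1a and Cdk6, the regions called in all 4 libraries outnumber the outlined WT-only regions at Ccnd3 and Cdk6.

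**Figure D2:**
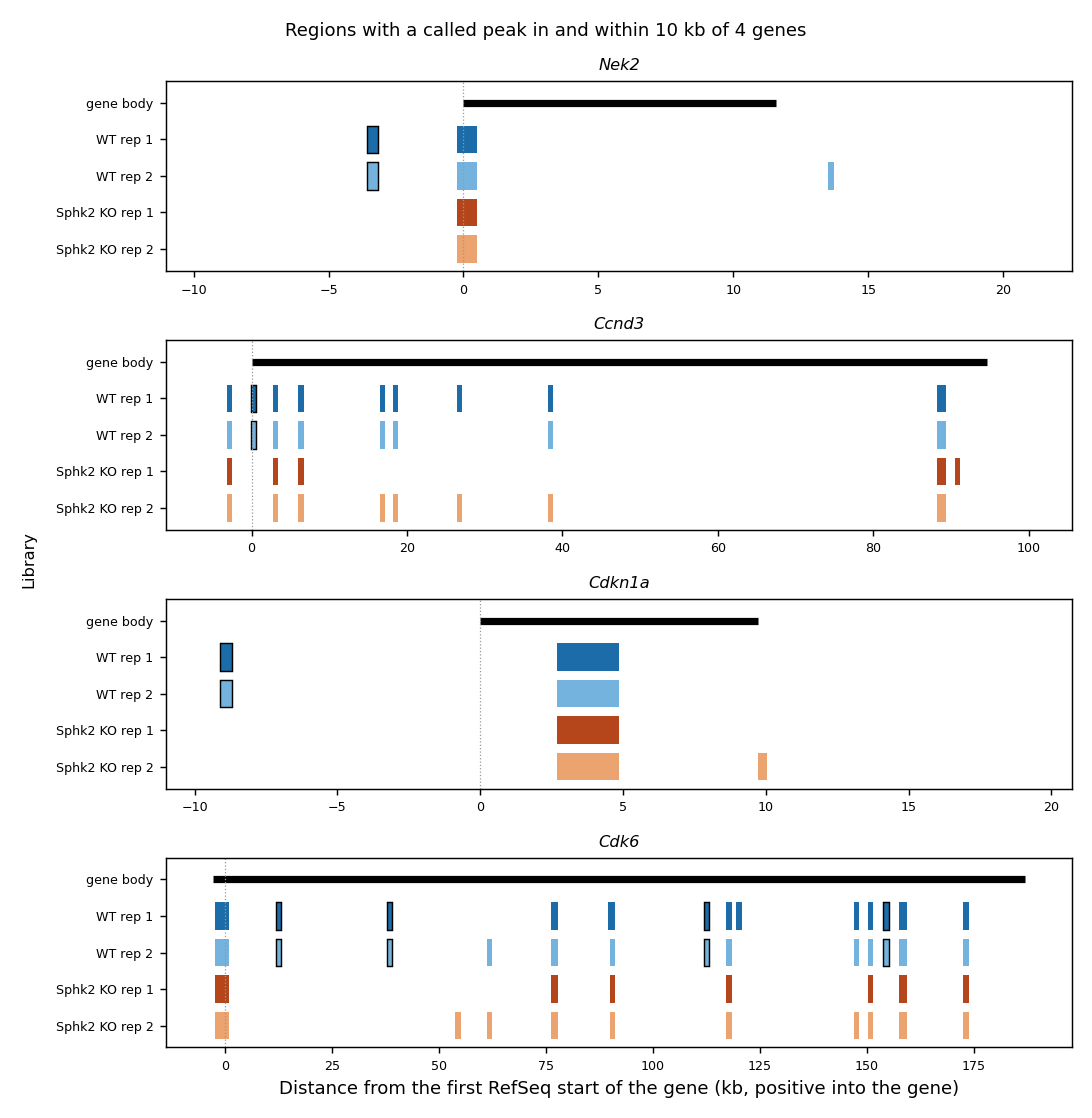
Maps of the merged regions in and within 10 kb of Nek2, Ccnd3, Cdkn1a and Cdk6. The horizontal axis is the distance in kb from the gene's first RefSeq start, the black line is the gene body, and each row of bars shows the regions in which that library had a called peak, with a minimum visible bar width. Bars with black edges are WT-only regions, of which Cdk6 has 4 and the other 3 genes 1 each.

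Ranks can be compared where all 4 libraries hold the same regions. Among the 16973 shared regions, the best gene-end region of each of 29 members was ranked by its score in each library, as a percent where 0 is the strongest. Both WT libraries ranked the region higher than both Sphk2 KO libraries at 5 members (17.2%), against 21.3% of all shared regions. Both Sphk2 KO libraries ranked it higher at 4 members (13.8%), against 22.1%. The ranks overlapped between genotypes at the 20 other members. The 5, with the gap between the genotypes in percentage points, were Ccnb1 (3.78), Cdk1 (12.6), Cdkn2d (0.053), Aurkb (8.38) and Trp53 (1.32). The 4 were Ccna2 (0.869), Ccne1 (8.93), Mcm4 (2.32) and Mcm7 (0.613). Both shares were below those of all shared regions, but the sets are unlike. Of the 16973 shared regions, 8159 lay at the ends of any protein-coding gene, and the shares among these alone were not computed. With a single library left out in turn, 7 to 15 members ranked higher in WT and 5 to 13 in Sphk2 KO libraries, since fewer ranks have to agree. The shares of all shared regions with a library left out were not computed, so these counts have nothing to be set beside.

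Only Cdk1, 1 of the 29 members (3.45%), had ranks separated by at least 10 percentage points. Of all shared regions 3.32% were so separated in that direction, a share close to that of the members. Its region at chr10:69352311-69353141 ranked at 68.9% and 78.0% in the WT libraries and 91.7% and 90.6% in the Sphk2 KO libraries, a gap of 12.6 points. Fold enrichment there was 7.23 and 6.17 in the WT libraries and 4.27 and 5.56 in the Sphk2 KO libraries. Pileups were 38 and 39 fragments in the WT libraries and 16 and 26 in the Sphk2 KO libraries. Pileup is not scaled to depth and both Sphk2 KO libraries retained fewer fragments, so these values are not a comparison of the genotypes. By rank, the Cdk1 region was nearer the bottom of the shared regions in both Sphk2 KO libraries, and the groups did not overlap. Aurkb had a gap of 8.38 points in the same direction, with 79.9% and 72.8% against 92.2% and 88.3%.

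In the other direction no member reached 10 points, where 3.03% of all shared regions did. Ccne1 came closest, with 24.0% and 33.4% in the WT libraries and 15% and 14.2% in the Sphk2 KO libraries, a gap of 8.93 points. Ccne1 lies 7.6 Mb from Sphk2 on chromosome 7. Of 1145 shared regions on chromosome 7, 23.7% ranked higher in both Sphk2 KO libraries, against 22.1% of all shared regions, and 4.89% did so by at least 10 points, against 3.03%. The part of linkage to Sphk2 was not tested. Mki67, Ccnd1 and Plk1 lie on the same chromosome, 90.0, 99.2 and 76.4 Mb from Sphk2, and the ranks of Mki67 and Plk1 overlapped between genotypes. In the plot of shared ranks most genes have WT and Sphk2 KO points interleaved.

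**Figure D3:**
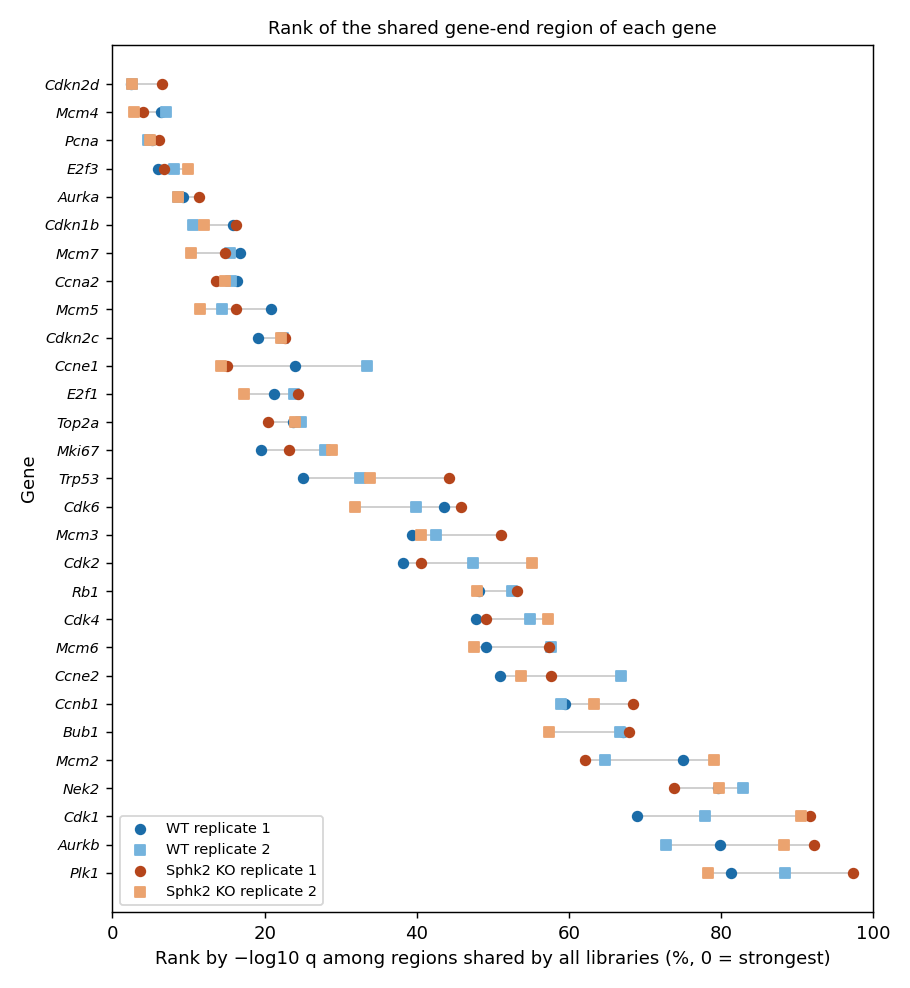
Rank of the best gene-end region of 29 genes among the 16973 regions shared by all libraries, in percent with 0 the strongest (horizontal axis), with 1 point per library and a grey line from the lowest to the highest. The WT points (blue) and Sphk2 KO points (orange and red) stand farthest apart at Cdk1, by 12.6 points, and are interleaved at 20 genes.

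A wider set of 182 other cell cycle genes in 9 lists gave similar calls. Gene-end peaks were found at 161, 161, 151 and 160 of them (88.5%, 88.5%, 83.0% and 87.9%), and 151 had one in all 4 libraries. The median score of their peaks was 62.9, 67.4, 40.0 and 78.4, above the members' median in each library. All 16 genes of the Rb, E2F and DREAM list, 27 of 28 genes of the kinetochore, spindle and cytokinesis list and 20 of 21 of the spindle checkpoint and anaphase promoting complex list were called in every library. Lower shares were found in the lists of the p53 pathway, with 16 of 23, deoxynucleotide supply, with 7 of 10, and the Myc network, with 8 of 12. Origin licensing and the replication fork had 26 of 33, regulators of cyclin-dependent kinases 15 of 20, and mitotic and S phase chromatin 18 of 21. The shares by library are given in the bar chart of gene sets.

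**Figure D4:**
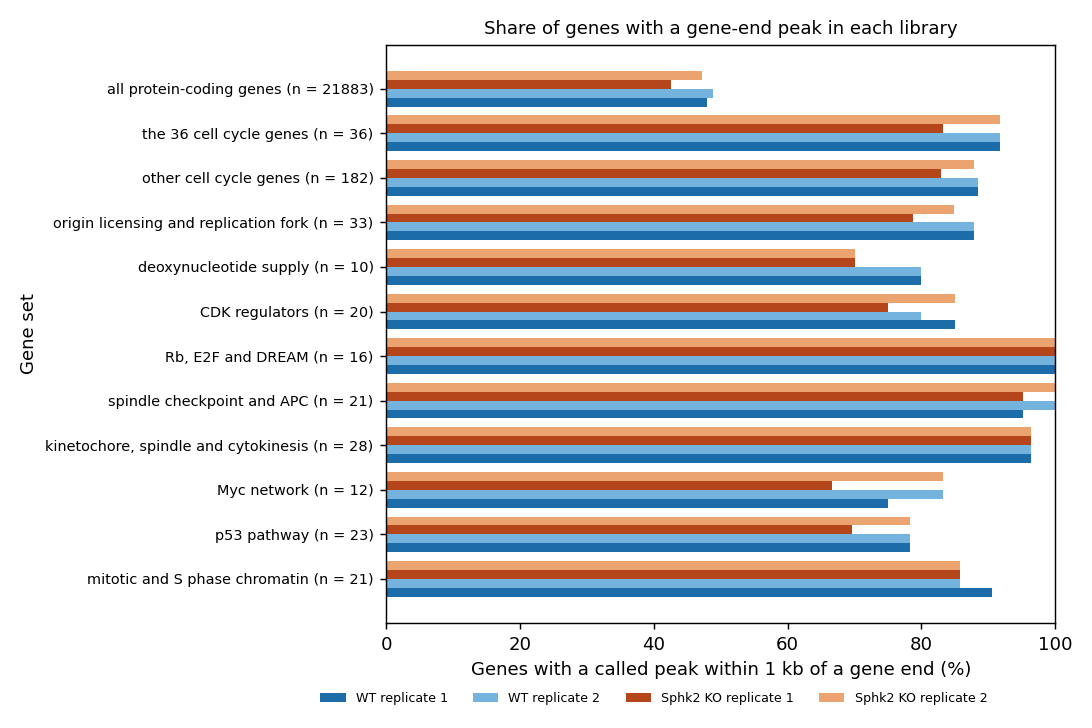
Share of genes with a called peak within 1 kb of a gene end (horizontal axis, percent) in each library (bars) for all protein-coding genes, the 36 cell cycle genes, the 182 other cell cycle genes and the 9 lists that make these up. Bars of the 36 genes lie between 83.3% and 91.7%, and those of all genes between 42.5% and 48.8%.

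WT-only gene-end peaks were found at 2 of the 182 genes, 159 of which had peaks in both WT libraries. Of all genes with peaks in both WT libraries, 2.74% were WT-only. Sphk2 KO-only peaks were found at none of the 151 with peaks in both Sphk2 KO libraries, against 0.239% of all such genes. The 2 were Prim1, the catalytic subunit of DNA primase, with scores of 1.82 and 2.34, and Tyms, thymidylate synthase, with 7.13 and 5.42. Both had low scores. No gene-end peak in any library was found at 19 of the 182, against 10631 of the 21883 protein-coding genes. Among the 19 were the replication ligase gene Lig1, the thymidine kinase gene Tk1 and the licensing gene Orc1, which were named after their values were seen. All 3 had a peak in the extended body in every library. In any library, 6 of the 182 had none there, against 6676 of the 21883 genes. Of the remaining 10, calls were mixed among libraries.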

How the data were processed

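Peaks were read from 1 deposited list per library. Per the file headers, MACS 2.1.1.20160309 was run by the authors on the paired-end fragments of a single library at a time. No control library was given, the q-value threshold was 0.05, 1 fragment per position was kept, and the background was taken over 10 kb. The submitters' processing notes also name cutadapt, BWA and the build mm10. A shift of fragment ends for Tn5 is not stated in these sources. Each deposited peak has a pileup (a coverage signal not scaled to depth), a −log10 p-value, a −log10 q-value and its fold enrichment, a ratio over the authors' local background. These are the authors' own scores. They were used to describe, rank and filter peaks within a list, and read counts were not used, so a region with no call may still be accessible below the threshold.

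Peaks sharing 1 bp were merged into regions with Python 3.11.15, pandas 2.3.3 and NumPy 2.4.6, and set against the RefSeq gene and promoter tables for GRCm38.p6. All 288 genes of the lists matched by symbol. Strand came from the promoter table, which has entries for 28 of the 36 members. Its sequences run 5′ to 3′ on the gene's strand, as checked on 1671 of 1671 overlapping windows of opposite strands, which were reverse complements. Letters were searched on both strands in the 250 bases before the start. WT-only means called in both WT lists and absent from both Sphk2 KO lists. The scripts for overlap and merging were tested on simulated peaks.

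All members are described by role. Values in full are given for members with calls in 1 genotype only, in some libraries or in none, for the 5 with the best mean rank, and for those whose shared ranks were separated by at least 10 percentage points. The members and lists were chosen with earlier results of these data known. Alternatives were a stricter score, lists of equal length, other distances, the start-site end alone, summits, merging within 500 bp and leaving out each library.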

Additional observations from a re-analysis of the deposited data

How the results depend on the processing

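Of 181 alternative values over 22 results, 159 stayed within 1.5 times the reported value and 22 moved further. All counts of members with a gene-end peak or a peak in the extended body were among the 159. WT-only genes numbered 2 at scores of 5 and above, 2 among equally long lists and 1 to 4 with a library left out, and Sphk2 KO-only genes 0 to 1 with a library left out. WT-only regions numbered 7 at scores of 5 and above, 5 among equally long lists, 6 without the extension of the body and 11 to 19 with a library left out. Sphk2 KO-only regions numbered 1 among equally long lists, 1 with peaks merged within 500 bp and 0 to 4 with a library left out. Members ranked higher in WT numbered 7 to 15 with a library left out. Members ranked higher in Sphk2 KO numbered 2 with the start-site end alone and 5 to 13 with a library left out. The cause of these shifts was not tested, beyond that leaving out a library asks fewer calls to agree. No shares over all genes or regions were computed for the alternative values. RefSeq promoter windows in place of gene ends were an alternative chosen after seeing the data, and gave 4 and 3. No paired analysis was possible because the results come from no test.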
